A study of Brachypodium distachyon with 8 samples.

Results

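The small RNA library from salt-stressed leaves of the grass Brachypodium distachyon was set against the 6 libraries from temperature-stressed leaves. These are 7 of the 8 libraries of the series, and they were scaled among themselves without the unstressed library. All plants were of Bd21, a diploid inbred line, and were grown at 22 °C. For salt, the soil was saturated with 300 mM NaCl and leaves were taken after 48 h. For cold, plants were kept at 4 °C for 6 h or 24 h. For heat, they were kept at 42 °C for 1 h or 3 h, either in air or under water. Below, the shorter time stands first wherever a pair of values is given for the cold, air-heat or water-heat libraries. The salt library thus differs from the others in the length of the treatment as well as in its kind, and the 2 cannot be told apart. The protocols also name 2 library preparation kits and do not say which library came from which, so kit and treatment cannot be told apart either. Of 30815 transcript identifiers with reads at a 3' untranslated region (3' UTR), 18069 from 13023 genes had 40 or more reads summed over the 7 libraries and were compared. One identifier with its reads is called a locus here. The files pair no identifier with a gene name, so no gene functions are given and the leaf label was not checked against marker genes.

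Plant small RNAs are told apart first by length. Reads of 21 nt are the usual size of microRNAs, which guide cleavage or silencing of messenger RNAs, and reads of 22 nt include microRNAs that can start secondary small RNA production. Reads of 24 nt are the usual size of the small interfering RNAs that guide DNA methylation. Shorter and longer reads at a transcript can also come from pieces of that transcript or of abundant RNAs that match it. Salt acts on a plant both by limiting water uptake and by ion toxicity.

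The deposited values are raw counts of reads by locus and read length. Their totals were 1730029 reads in the salt library, the lowest of the 7, and 1942169 to 4622303 reads in the temperature libraries. The 10 most abundant loci held 50.7% of the reads in the salt library, against 39.3% to 70.7% in the temperature libraries. Trimmed-mean scaling (TMM) set the effective size of the temperature libraries at 0.571 to 1.88 times that of the salt library. It was lowest for water heat for 1 h, the library with the fewest loci listed. In every file a count of 2 was commoner than a count of 1, by 2.37 times in the salt library and by 1.70 to 2.65 times in the temperature libraries. Many reads thus look to have been counted 2 times, so the 95% counting intervals below are too narrow, and counts divided by 2 were run beside the deposited ones. Each condition has 1 library, so every difference is between libraries, has no replicate check and carries no p-value.

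The salt library stood apart in the lengths of its reads. Outside the 100 most abundant loci, every length from 25 to 35 nt took a larger share of the reads in the salt library than in any temperature library, with exact 95% intervals that did not overlap. These were 11 of 27 lengths, or 40.7%, and no length lay below all 6. Together the reads of 25 to 41 nt made up 23.1% of the salt library there, with an interval of 22.97% to 23.19%. They made up 9.05% and 9.43% in the cold libraries, 13.9% and 14.1% in the air-heat libraries, and 17.2% and 15.4% in the water-heat libraries. The salt library was highest and the 2 cold libraries were lowest.

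The gap was seen along the whole stretch of lengths rather than at 1 peak. At 26 nt the share was 2.25% in the salt library, against 0.894% to 1.85% in the temperature libraries. At 30 nt it was 2.11%, against 0.651% to 1.43%, and at 34 nt it was 1.56%, against 0.468% to 1.08%. From 36 nt upwards the salt library fell back inside the range, with 0.557% at 36 nt, against 0.125% to 0.699%. In the unstressed library, which was not used in the scaling, 10.5% of the reads outside the same 100 loci were 25 to 41 nt long. That library is not a like-for-like baseline, since those 100 loci held 94.5% of its reads, against 65.3% in the salt library. The sign of double counting differed by length: of the listed counts, 26.7% were odd at 25 to 41 nt in the salt library, against 25.99% to 33.6% in the temperature libraries, where both cold libraries were highest. At 24 nt 42.8% were odd in the salt library, against 40.6% to 45.1%. The part of double counting in these shares was not tested beyond dividing all counts by 2, which leaves shares as they are.

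**Figure D1:**
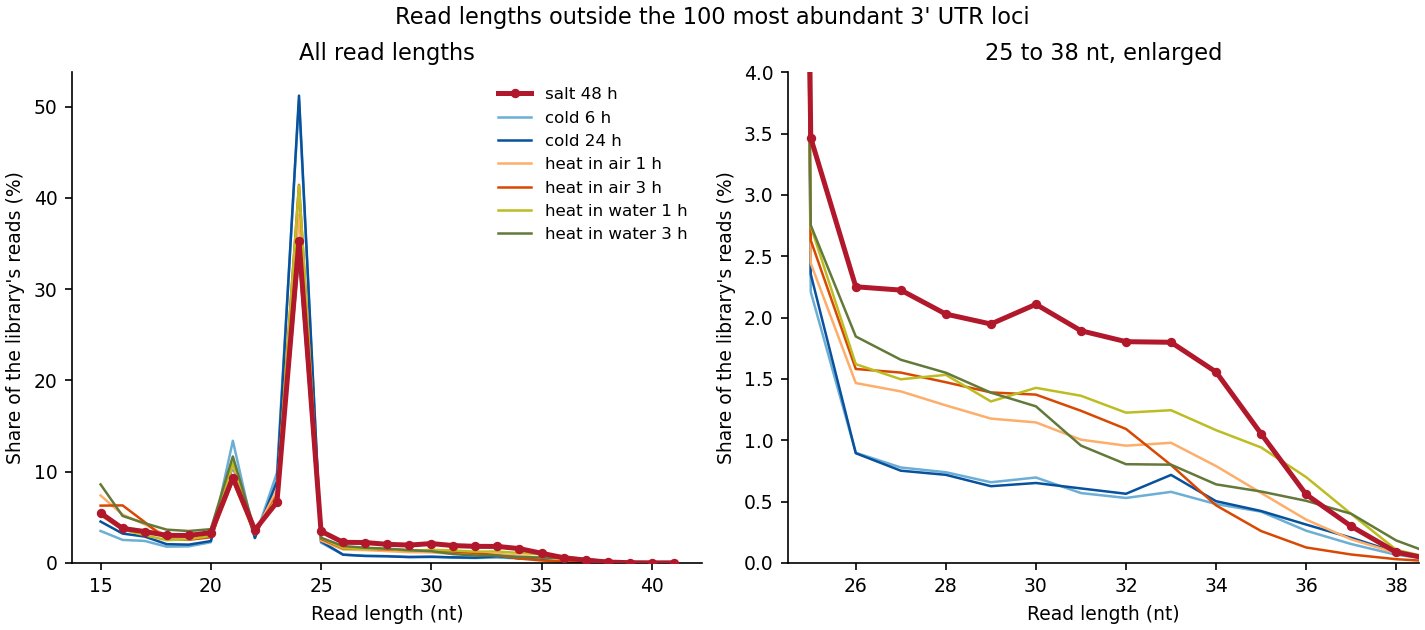
Share of each library's reads outside the 100 most abundant loci (y axis, %) by read length (x axis, nt), for the salt library (red with points) and the 6 temperature libraries; the right panel enlarges 25 to 38 nt. The salt line runs above the other 6 from 25 to 35 nt and inside them at 24 nt.

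Outside the 100 most abundant loci, the salt library lay inside the range of the 6 at 21 nt and 24 nt, in each case because of 1 library. The 24 nt reads, the commonest length in all 7 libraries outside the 100 most abundant loci, made up 35.3% of the salt library there. The temperature libraries held 50.7% and 51.2% in the cold libraries, 38.2% and 41.4% in the air-heat libraries, and 41.4% and 33.8% in the water-heat libraries, so the salt value lay inside their range. Without water heat for 3 h it lay below all the others at 23 and 24 nt and above them at 20 and 22 nt as well as at 25 to 35 nt. There were 3.78 reads of 24 nt for each read of 21 nt in the salt library, against 2.90 to 4.81 in the temperature libraries. Outside the 10 most abundant loci, 21 nt was the 1 length of 27 (3.7%) at which salt lay below all 6, with 8.36%, against 8.63% to 12.6%. Outside the 100 most abundant loci the 21 nt share was 9.35%, against 9.03% to 13.4%, and so inside the range; without air heat for 3 h it lay below all the others.

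When all loci were counted, a few of them weighed heavily on the profile. Salt then lay above all 6 at 17, 22, 25, 26, 27 and 28 nt, which were 6 of 27 lengths (22.2%), and below all 6 at none. The 22 nt reads made up 7.91% of the salt library, against 3.87% to 5.79% in the temperature libraries. Of the 22 nt reads in the salt library, 23.2% were listed at Bradi4g12040.1 and as many at Bradi4g12040.2, transcripts of 1 gene with equal counts in all 7 libraries. At this gene 96.7% of the salt reads were 22 nt long, against 96.1% to 96.9% in the temperature libraries. It held 1.90% of all reads in the salt library at each identifier, against 0.546% to 1.35%, while on the TMM scale the salt level was 0.718 times that of water heat for 1 h. Outside the 10 most abundant loci the 22 nt share was 3.55% in the salt library, against 2.60% to 3.51%, and outside the 100 it was 3.61%, against 2.72% to 3.57%; both times the salt interval overlapped that of water heat for 3 h.

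As a share of each library's reads, Bradi5g00200.1 was also highest under salt. It held 14.1% of the reads in the salt library, against 5.44% and 7.93% in the cold libraries, 9.32% and 12.8% in the air-heat libraries, and 6.18% and 11.6% in the water-heat libraries. On the TMM scale it was not: the salt level was 0.829 and 0.894 times that of the air-heat libraries and 0.774 times that of water heat for 3 h. Its reads were spread over many lengths, and the commonest, 21 nt, made up 6.7% of them in the salt library. It held 37.7% of all 28 nt reads in the salt library, against 14.5% to 42.3% in the temperature libraries. Bradi4g27190.1, the most abundant locus, held 17.5% of the salt library, against 13.1% to 19.2%, and did not stand apart. Bradi1g05790.1 held 6.03%, against 5.88% to 27.1%, and its commonest length was 20 nt in the salt and heat libraries but 35 nt in both cold libraries. Bradi2g13080.1 held 1.48%, against 1.12% to 16.9%, with 31 nt as its commonest length in all 7 libraries. Its counts ran close to those of Bradi3g27270.1, an identifier of another gene, and whether these 2 loci share reads was not tested. Of the remaining abundant loci, Bradi5g10760.1 held 3.21% of the salt library against 0.751% to 5.65%, Bradi2g06470.1 held 1.85% against 0.951% to 5.20%, and Bradi3g13900.1 held 1.40% against 0.579% to 3.43%.

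The long reads of the salt library came from many loci. Outside the 100 most abundant loci they numbered 138522 in the salt library, against 63798 to 181712 in the temperature libraries. In the salt library they were listed at 16970 identifiers. The 10 loci with the most of them held 2.74%, against 4.02% to 5.74% in the temperature libraries. It took 1986 identifiers to reach 50% of them in the salt library, against 919 to 1493 in the temperature libraries. By these measures, which were not taken at equal numbers of reads, they were more evenly spread over loci than in any of the 6. The same held for reads of 20 to 23 nt, of which 1722 identifiers held 50% in the salt library, against 1004 to 1418, and the 10 largest loci 1.94%, against 2.17% to 3.47%. At 15 to 19 nt the 10 largest loci held 3.26%, against 3.59% to 5.63%, but 2123 identifiers held 50%, inside the 1285 to 2151 of the temperature libraries. At 24 nt the salt library lay inside the range by both measures. There 1015 identifiers held 50%, against 901 to 1053, and the 10 largest loci held 2.44%, against 1.75% to 2.91%.

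The same was asked locus by locus, with the reads of each length class scaled by TMM. For reads of 25 to 41 nt, 5212 identifiers had 40 or more such reads over the 7 libraries. The salt reads counted toward this minimum, here and in the other classes, so a locus with few reads could enter because salt was high. The salt level lay above all 6 temperature libraries at 41.9% of them and below all 6 at 4.55%. At 30 (0.576%) the whole 95% interval lay more than 2-fold above each of the 6, and at 0 it lay more than 2-fold below; these 30 identifiers belonged to 20 genes. Without water heat for 1 h there were 63, and with counts divided by 2 there were 13. The median log2 ratio of salt to temperature ran from 0.35 against water heat for 1 h to 1.10 against 6 h of cold. Each median was taken over the identifiers with 40 or more such reads in the pair of libraries compared. Among the 603 identifiers with 200 or more such reads the median ran from -0.09 to 0.98. The salt level lay above all 6 at 28.5% of these 603.

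**Figure D2:**
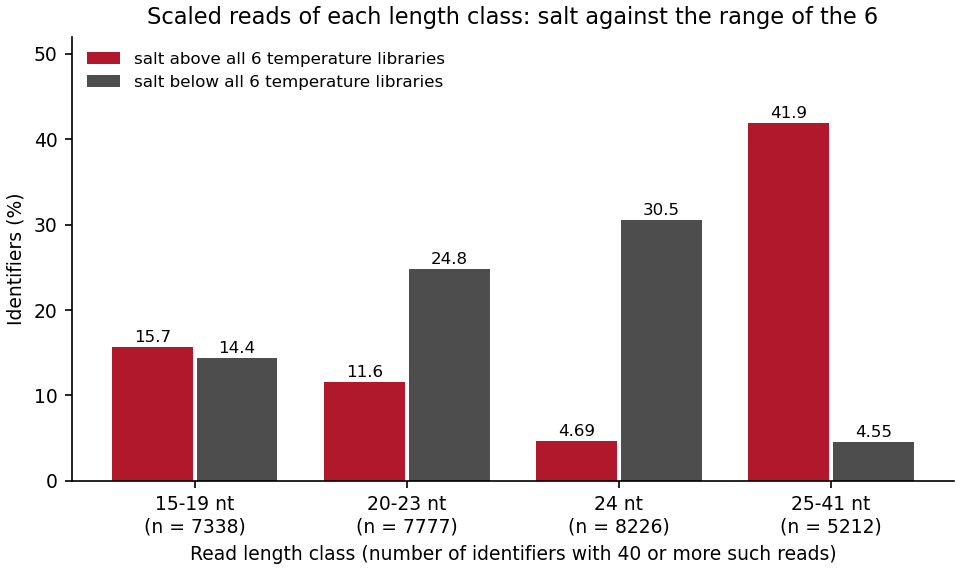
Share of identifiers (y axis, %) at which the TMM-scaled reads of a length class (x axis) in the salt library lay above all 6 temperature libraries (red) or below all 6 (grey); n is the number of identifiers with 40 or more such reads. Reads of 25 to 41 nt were above the 6 at 41.9% and below at 4.55%, and reads of 24 nt were above at 4.69% and below at 30.5%.

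With TMM the other classes leaned the other way or hardly at all. For 24 nt reads the salt level lay above all 6 at 4.69% of 8226 identifiers and below all 6 at 30.5%. The median log2 ratio, taken as for the long reads, ran from -0.91 to -0.12. For 20 to 23 nt reads the salt level lay above at 11.6% and below at 24.8% of 7777. For 15 to 19 nt reads it lay above at 15.7% and below at 14.4% of 7338. Beyond 2-fold of all 6, 24 nt reads were higher at 16 (0.195%) and lower at 10 (0.122%) identifiers. The 20 to 23 nt reads were higher at 9 (0.116%) and lower at 8 (0.103%), and the 15 to 19 nt reads were higher at 6 (0.0818%) and lower at 10 (0.136%). The lower calls came from 5 genes at 24 nt, 4 at 20 to 23 nt and 5 at 15 to 19 nt. The higher calls came from 13, 7 and 4 genes in the same order. Without water heat for 1 h the calls in both directions together were 57, 27 and 31 in these 3 classes. The levels rest on the scaling: with libraries scaled by their 3' UTR totals, 24 nt reads lay above all 6 at 7.35% and below at 8.23%, while 25 to 41 nt reads lay above at 57.4% and below at 2.32%. The other 2 classes then leaned the same way as the long reads, with 20 to 23 nt reads above at 18.8% and below at 9.55%, and 15 to 19 nt reads above at 27.3% and below at 8.6%. With totals the calls beyond 2-fold were 28 higher and 1 lower for 24 nt, 32 and 0 for 20 to 23 nt, 12 and 1 for 15 to 19 nt, and 144 and 0 for 25 to 41 nt.

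Bradi2g55120.1 was the locus whose long reads lay farthest above the temperature libraries. It had 97 reads of 25 to 41 nt in the salt library, against 14 and 10 in the cold libraries, 6 and 16 in the air-heat libraries, and 2 and 3 in the water-heat libraries. The scaled ratio was 11.4-fold (95% interval 6.67 to 20.7) to the nearest library, air heat for 3 h. The long reads made up 43.3% of the locus in the salt library, against 11.9% to 27.1%. Its 15 to 19 nt reads were also higher, with 64 reads in the salt library, against 0 to 20 in the temperature libraries and a ratio of at least 5.52-fold to each of them. At Bradi5g09170.1, the next locus for 15 to 19 nt reads, there were 75 reads in the salt library, against 7 to 20.

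Single loci differed at 24 nt in both directions. Bradi1g67190.1 had 117 reads of 24 nt in the salt library, against 20 and 21 in the cold libraries, 17 and 19 in the air-heat libraries, and 5 and 7 in the water-heat libraries. It was 9.61-fold (6.01 to 16.1) above the nearest, 24 h of cold. Bradi3g49590.1 had 2 reads of 24 nt in the salt library, against 278 and 531 in the cold libraries, 61 and 352 in the air-heat libraries, and 330 and 102 in the water-heat libraries. It was 20.8-fold (5.53 to 176) lower in salt than in the nearest library, air heat for 1 h. The salt library still held 26 reads of all lengths at this locus, and 57.7% of them were 21 nt long, while 24 nt was the commonest length in all 6 temperature libraries. Bradi3g10200.1, next among those higher, had 62 reads of 24 nt in the salt library, against 1 to 12, and Bradi1g28680.2, next among those lower, had 4, against 39 to 573. Bradi1g28680.1, Bradi1g28680.3, Bradi1g28680.4 and Bradi1g28680.5 had counts within 5% of those of Bradi1g28680.2.

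At 20 to 23 nt, Bradi3g59030.1 had 58 reads in the salt library, against 2 to 12 in the temperature libraries, 8.29-fold (3.07 to 31.4) above the nearest, water heat for 1 h. Bradi3g28920.1 had 30 reads, against 0 to 8. Bradi2g35630.2 had 0 reads of 20 to 23 nt in the salt library, against 29 and 23 in the cold libraries, 40 and 17 in the air-heat libraries, and 7 and 25 in the water-heat libraries. Bradi1g46530.7 was lower under salt with many more reads. It had 351 reads of 20 to 23 nt in the salt library, against 2754 and 1841 in the cold libraries, 2057 and 2385 in the air-heat libraries, and 498 and 2968 in the water-heat libraries. That was 2.48-fold (2.16 to 2.85) lower in salt than in water heat for 1 h, and 3.04-fold to 6.66-fold lower than in the other 5. Most of its reads were of 1 length, with 21 nt making up 55.0% in the salt library and 57.2% to 61.7% in the temperature libraries. Its 15 to 19 nt reads were lower too, 34 in the salt library against 90 to 681. Bradi1g46530.1, Bradi1g46530.3, Bradi1g46530.4 and Bradi1g46530.6 had counts within 5% of its own. Bradi4g40780.1 had 0 reads of 15 to 19 nt in the salt library, against 18 to 84, which was at least 4.08-fold lower in salt than in each of the 6.

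A share within a locus needs no scaling between libraries. At 1805 identifiers from 1293 genes, all 7 libraries held 40 or more reads. There, the median share of reads of 25 to 41 nt was 7.23% in the salt library. It was 3.23% and 3.29% in the cold libraries, 4.13% and 4.38% in the air-heat libraries, and 4.17% and 4.58% in the water-heat libraries. The share in the salt library was above the highest of the 6 at 44.7% of these loci and below the lowest at 4.49%. At 39 identifiers (2.16%) from 21 genes the salt interval lay apart from and above the intervals of all 6 with a gap of 10 percentage points or more between the shares, and at 0 it lay below.

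**Figure D3:**
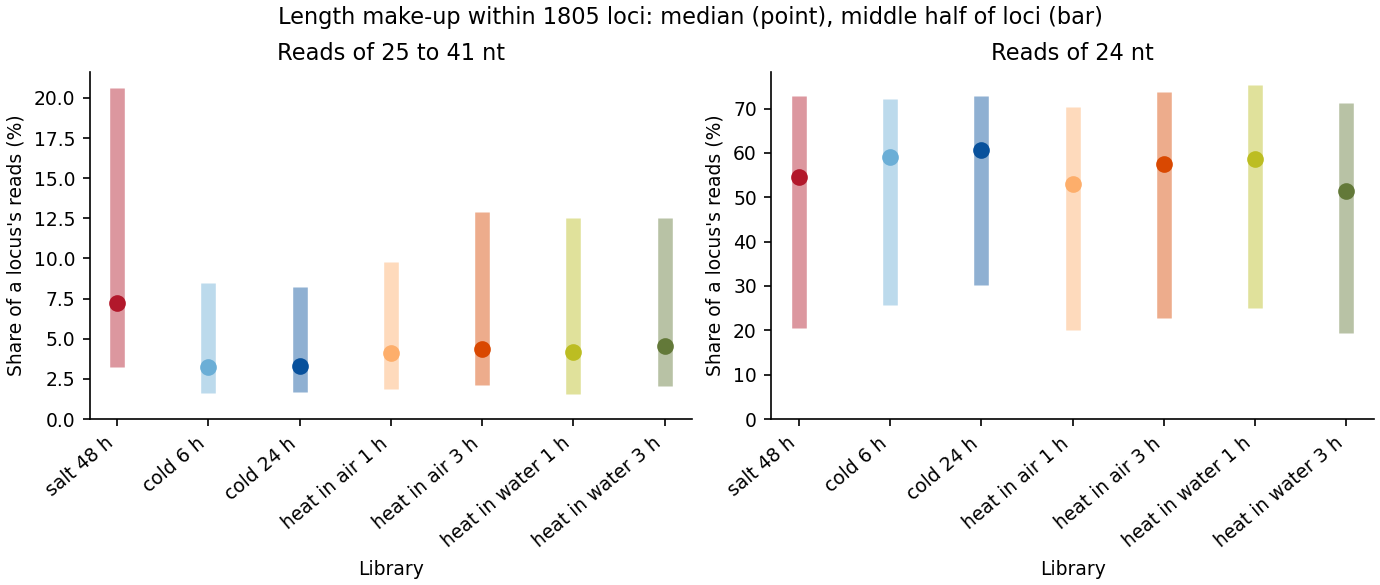
Share of a locus's reads (y axis, %) of 25 to 41 nt (left) and of 24 nt (right) over 1805 identifiers in each library (x axis); points are medians and bars run from the first to the third quartile. The salt median of 7.23% for 25 to 41 nt lies above the 3.23% to 4.58% of the temperature libraries, while that for 24 nt, 54.5%, lies inside their 51.5% to 60.6%.

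In the other 3 classes the shares went both ways. The 24 nt share was above all 6 by this rule at 11 identifiers (0.609%) and below at 19 (1.05%), and its median of 54.5% in the salt library lay inside the 51.5% to 60.6% of the temperature libraries. The 20 to 23 nt share was above at 11 (0.609%) and below at 15 (0.831%), and the 15 to 19 nt share was above at 6 (0.332%) and below at 2 (0.111%). Without water heat for 1 h the calls in both directions together were 51, 45 and 20. In all, 85 identifiers (4.71%) from 55 genes stood apart in 1 class or more. With counts divided by 2, 6 identifiers lay above all 6 in the 25 to 41 nt share and 0 below. Without water heat for 1 h, 66 lay above in that share.

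Some loci differed in how their reads were split between 20 to 23 nt and 24 nt. Bradi3g56220.1 had 61.5% of its reads at 20 to 23 nt in the salt library (95% interval 53.5% to 69.0%), against 23.5% and 19.8% in the cold libraries, 18.7% and 19.1% in the air-heat libraries, and 8.33% and 10.7% in the water-heat libraries. Its commonest length was 21 nt in the salt library and 24 nt in all 6 temperature libraries, and its 24 nt share was 35.4%, against 68.3% to 83.9%. Bradi3g22430.1 also had its highest 20 to 23 nt share under salt, 59.5%, against 6.78% to 34.7%. Bradi1g46560.1 did the opposite, with 21.8% of its reads at 20 to 23 nt, against 49.2% to 86.4%, and 69.2% at 24 nt, against 6.17% to 43.4%. Its commonest length was 24 nt in the salt and air-heat libraries and 21 nt in the cold and water-heat libraries. At Bradi2g55020.1 the 20 to 23 nt share was 8.70%, against 34.9% to 57.3%, and at Bradi1g67210.1 the 24 nt share was 89.2%, against 28.6% to 63.5%. At both loci 24 nt was the commonest length in the salt library and in most temperature libraries.

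Other loci had a larger share of long reads in the salt library. At Bradi5g23820.1 the 24 nt share was 11.6% in the salt library, against 36.9% to 57.1%. Reads of 25 to 41 nt made up 44.9% of the locus, near the 40.8% of water heat for 1 h, against 11.3% to 23.5% in the other temperature libraries. At Bradi3g42340.1 the share of 25 to 41 nt was 36.6% (27.3% to 46.8%) in the salt library. It was 12.6% and 7.0% in the cold libraries, 12.1% and 11.5% in the air-heat libraries, and 5.56% and 10.6% in the water-heat libraries. At Bradi2g53970.1 it was 27.5%, against 0.431% to 5.06%, on 14 such reads in the salt library. Bradi3g15610.1 had 1041 reads in the salt library, of which 59.8% were 25 to 41 nt long, against 5.85% to 23.2% in 5 temperature libraries and 44.0% in water heat for 1 h. In the salt library 20.6% of its reads were exactly 32 nt long, against 14.9% in water heat for 1 h. Its 15 to 19 nt share was 27.9% in the salt library, against 39.6% to 62.3%, and its commonest length was 15 or 19 nt in all 6 temperature libraries. At Bradi3g39620.1 the 15 to 19 nt share was 26.1%, against 37.7% to 50.9%. In the opposite direction, Bradi2g41230.1 had 44.0% of its reads at 15 to 19 nt, against 6.72% to 19.2%, and Bradi1g32800.1 had 16.5%, against 0% to 3.7%.

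For whole loci, all lengths summed, few lay clear of all 6 temperature libraries. The interval lay more than 2-fold above each of the 6 at 43 of 18069 identifiers (0.238%), from 31 genes, and more than 2-fold below each at 11 (0.0609%), from 6 genes. Without the demand on the interval, the scaled salt level was above the highest of the 6 at 3714 identifiers (20.6%) and below the lowest at 3162 (17.5%). Among 7 libraries 1 must be highest and 1 lowest at each locus, ties apart. No such counts are given for the temperature libraries, here or by length class, so these shares have no yardstick. With libraries scaled by their 3' UTR totals the calls were 142 higher and 3 lower, so that 97.9% of them were higher in salt, against 79.6% with TMM; scaled by the totals outside the 100 most abundant loci it was 88.2%. With counts divided by 2 they were 15 and 7. Most calls lower in salt were set by 1 library: the weakest of the 6 bounds was that to water heat for 1 h for 8 of the 11, and without that library the count was 37. It was 18 without cold for 24 h, 17 without air heat for 1 h and 21 without water heat for 3 h. The count of higher loci was 70 without water heat for 3 h.

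The 43 loci that were higher were small, with 22 to 342 reads and a median of 63 in the salt library, and 9 of them had 0 reads in at least 1 temperature library. Their median log2 ratio ran from 2.58 against air heat for 1 h to 2.98 against 6 h of cold. These ratios are large by construction, since the loci were chosen for lying beyond all 6 libraries, and salt reads counted toward the minimum. Of the summed reads of the 43 loci, 33.5% were 25 to 41 nt long in the salt library, against 22.5% to 31.5% in the temperature libraries. Those of 20 to 23 nt made up 16.2%, against 21.2% to 26.3%. Of the 11 loci that were lower, 5 were led by 20 to 23 nt, 4 by 15 to 19 nt and 2 by 24 nt in the temperature libraries. The 5 led by 20 to 23 nt were near-identical identifiers of 1 gene, Bradi1g46530. Reads of 20 to 23 nt made up 66.0% of their summed reads in the salt library, against 64.0% to 68.3%, and most of the summed reads belonged to the near-identical identifiers of Bradi1g46530. The median log2 ratio of the 11 loci ran from -3.12 against 6 h of cold to -2.03 against water heat for 1 h. Loci at 0 reads were set to a floor of 3 counts, and the size of these ratios also follows from the choice of loci. The call nearest to the threshold among the higher loci had a weakest bound of 2.03-fold and the first locus outside had 1.99-fold; among the lower loci these were 0.471-fold and 0.527-fold.

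Bradi1g29850.2 lay farthest above. It had 112 reads in the salt library, against 4 and 10 in the cold libraries, 15 and 14 in the air-heat libraries, and 2 and 6 in the water-heat libraries. The scaled ratio was 10.9-fold (6.35 to 20.2) to the nearest library, air heat for 1 h, and 49.8-fold (18.9 to 186) to 6 h of cold. Its salt reads had no main length, and 43 of the 112 were 25 to 41 nt long, against 0 to 2 such reads in the temperature libraries. Bradi5g18880.1 came next, with 87 reads in the salt library, against 6 and 3 in the cold libraries, 15 and 26 in the air-heat libraries, and 2 and 4 in the water-heat libraries. It was 6.29-fold (4.02 to 10.2) above air heat for 3 h, the nearest.

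Bradi3g40000.1 lay farthest below. It had 0 reads in the salt library, against 90 and 29 in the cold libraries, 57 and 41 in the air-heat libraries, and 23 and 49 in the water-heat libraries. Against the floor of 3 counts it was at least 5.60-fold lower in salt than after 24 h of cold, the nearest, and at least 16.9-fold lower than after 6 h of cold. Bradi3g40000.2, of the same gene, had counts within 5% of these. Bradi1g62400.1 also had 0 reads in the salt library, against 95 and 102 in the cold libraries, 32 and 30 in the air-heat libraries, and 7 and 31 in the water-heat libraries, and was at least 4.08-fold to at least 19.7-fold lower. Over all loci compared, 181 had 0 reads in the salt library and reads in all 6 temperature libraries, while 0 had reads in the salt library alone; 16088 had reads in all 7.

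**Figure D4:**
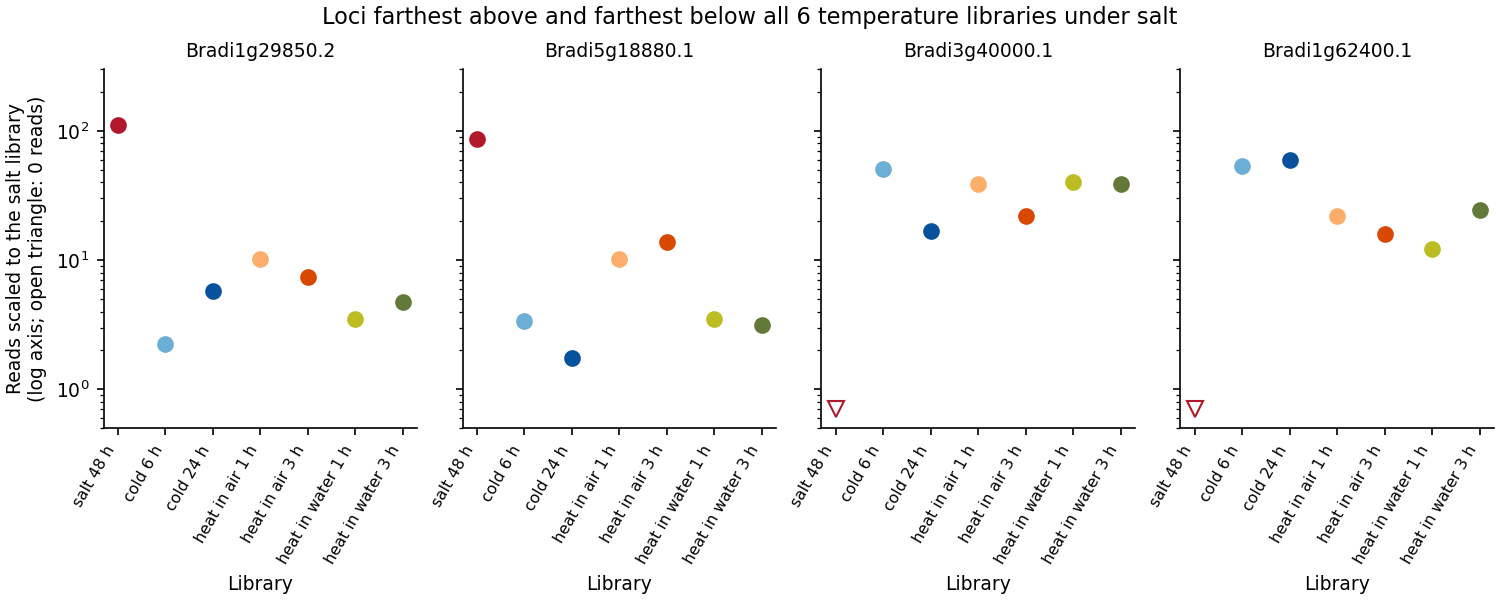
Reads scaled to the salt library (y axis, log scale) in each library (x axis) for the 2 loci farthest above and the 2 farthest below all 6 temperature libraries; open triangles mark 0 reads. The salt points lie above the other 6 at Bradi1g29850.2 and Bradi5g18880.1, and salt has 0 reads at Bradi3g40000.1 and Bradi1g62400.1.

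Each locus was also placed by the class that led its reads in the temperature libraries alone. The salt reads thus had no part in the choice of class. They did count toward the minimum number of reads needed for comparison, so a locus with few reads could enter because salt was high. With a minimum of 200 reads, whole-locus calls beyond all 6 were 15 higher and 10 lower, against 43 and 11. What the minimum added to the shares and calls by leading class was not tested. Of the 2565 identifiers led by 25 to 41 nt, whole-locus levels lay above all 6 at 37.3% and below at 4.05%. At 18 (0.702%) of them the interval lay beyond 2-fold above all 6, and at 0 below; this count of 18 was 32 without water heat for 3 h and 3 with counts divided by 2. Of the 7573 led by 24 nt, levels lay above at 7.84% and below at 30.4%, with 8 (0.106%) higher and 2 (0.0264%) lower by the interval, and 9 and 20 without water heat for 1 h. Of the 5785 led by 15 to 19 nt, 29.4% lay above and 7.28% below, with 14 (0.242%) higher and 4 (0.0691%) lower. Of the 2146 led by 20 to 23 nt, 21.6% lay above and 15.5% below, with 3 (0.14%) higher and 5 (0.233%) lower. These 5 were the near-identical identifiers of Bradi1g46530. With 3' UTR totals as the scale, loci led by 24 nt lay above at 11.2% and below at 5.72%, and those led by 25 to 41 nt above at 56.6% and below at 2.18%. The calls were then 48 higher and 0 lower for loci led by 25 to 41 nt, 16 and 0 for 24 nt, 66 and 3 for 15 to 19 nt, and 12 and 0 for 20 to 23 nt.

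Taken 1 temperature library at a time, salt had the most calls against the cold libraries with TMM. These 6 comparisons share the salt library and are not independent. Against 6 h of cold, 1397 identifiers (7.73%) were more than 2-fold higher in salt by the whole interval and 1040 (5.76%) lower, and against 24 h of cold 1241 (6.87%) were higher and 841 (4.65%) lower. Against air heat for 1 h there were 621 (3.44%) higher and 787 (4.36%) lower, and against air heat for 3 h there were 724 (4.01%) higher and 749 (4.15%) lower. Against water heat for 1 h there were 538 (2.98%) higher and 609 (3.37%) lower, and for 3 h 563 (3.12%) higher and 732 (4.05%) lower. The 6 totals of 1147 to 2437 lay inside those of the 15 pairs of temperature libraries, which ran from 703 to 2511. That range mixes pairs of like and unlike stress. Salt had 1147 to 1473 calls against the heat libraries, while pairs of heat libraries had 703 to 1124. It had 2437 and 2082 against the cold libraries, while the pair of cold libraries had 886. Pairs of a cold and a heat library had 1517 to 2511. The median size of the log2 ratio was 0.55 to 0.89 in the pairs with salt and 0.37 to 0.79 in the pairs of temperature libraries. It was taken over loci with 40 or more reads in the pair and with reads in both libraries.

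**Figure D5:**
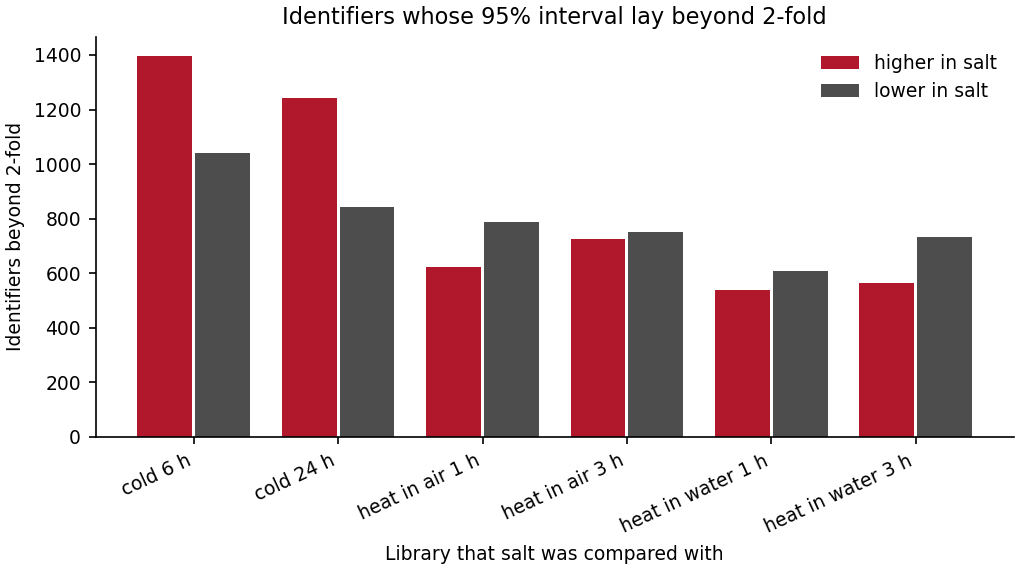
Number of identifiers (y axis) whose 95% interval lay more than 2-fold higher (red) or lower (grey) in the salt library than in each temperature library (x axis). Counts were highest against 6 h of cold, with 1397 higher and 1040 lower, and lowest against water heat for 1 h, with 538 and 609.

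The number and direction of these calls depended on the scaling. With 3' UTR totals there were 2972 and 2205 calls against the cold libraries, 3002 and 1739 against the air-heat libraries, and 2720 and 2056 against the water-heat libraries, so that cold no longer led. The share of calls that were higher in salt was 57.3% and 59.6% against the cold libraries, 44.1% and 49.2% against the air-heat libraries, and 46.9% and 43.5% against the water-heat libraries. With 3' UTR totals as the scale they were 84.6% and 36% against the cold libraries, 90.3% and 70.4% against the air-heat libraries, and 92.2% and 84% against the water-heat libraries. Over loci with 40 or more reads in the pair compared, the median log2 ratio was -0.36 to -0.04 with TMM and -0.59 to 0.88 with totals.

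The loci most depleted in salt against heat were loci with many reads under heat. Bradi2g19540.1 had 0 reads in the salt library, against 1791 and 2054 in the air-heat libraries, 461 and 662 in the water-heat libraries, and 4 and 7 in the cold libraries. It was at least 408-fold lower in salt than after air heat for 1 h. Bradi2g02410.1 had 4 reads in the salt library, against 1341 and 3433 in the air-heat libraries, 690 and 3366 in the water-heat libraries, and 0 and 2 in the cold libraries, and was 663-fold (259 to 2434) lower in salt than in water heat for 3 h. Salt and cold were both low at these 2 loci. Bradi1g03900.1 was the like case for cold, with 100 reads in the salt library, against 6347 and 9657 in the cold libraries, 272 and 199 in the air-heat libraries, and 60 and 228 in the water-heat libraries. It was 35.7-fold (29.3 to 43.9) lower in salt than after 6 h of cold. Bradi5g21290.1 had 0 reads in the salt library, 25 and 353 in the cold libraries and 0 in all 4 heat libraries.

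The loci most enriched in salt had fewer reads, and several of them were also high in a temperature library. Bradi2g54460.1 had 123 reads in the salt library, against 3 and 98 in the cold libraries, 23 and 8 in the air-heat libraries, and 30 and 143 in the water-heat libraries, and was 72.9-fold (24.4 to 358) above 6 h of cold. Bradi5g12400.1 had 246 reads, against 71 and 418 in the cold libraries, 135 and 13 in the air-heat libraries, and 29 and 152 in the water-heat libraries, and was 35.6-fold (20.4 to 67.7) above air heat for 3 h. At each of these 2 loci 1 temperature library had more reads than the salt library before scaling. On the TMM scale it came near to the salt level without passing it. Bradi3g08690.1 had 97 reads, against 8 and 93 in the cold libraries, 10 and 21 in the air-heat libraries, and 0 and 6 in the water-heat libraries. Bradi1g18650.1 had 96 reads, against 43 and 25 in the cold libraries, 36 and 45 in the air-heat libraries, and 4 and 0 in the water-heat libraries. Bradi1g69910.1 had 37 reads, against 4 and 0 in the cold libraries, 0 and 10 in the air-heat libraries, and 3 and 3 in the water-heat libraries, and was at least 18.0-fold above air heat for 1 h. Bradi1g69910.2 and Bradi1g69910.5 had counts within 5% of its own.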

How the data were processed

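The authors deposited raw counts, so called in the file headers, by 3' UTR transcript identifier and read length (15 to 41 nt). The submitters' processing notes list Bowtie 0.12.7, bedtools 2.10.0 and CASAVA without roles; genome build, annotation, multiple mapping and strand are not given in the sources. The counts cover 3' UTRs alone, so totals are not sequencing depth. Reads of overlapping transcripts or near-identical copies may be counted more than once, and 4267 of 24118 genes had more than 1 identifier. Of these genes, 0 could be found among the 31335 in RefSeq's Brachypodium_distachyon_v3.0 table, so planned gene lists were not run. There were 0 per-sample columns left unused.

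Libraries were scaled to the salt library by TMM, trimming 30% of log ratios and 5% of levels, in Python 3.11.15 (numpy 2.4.6, pandas 2.3.3, scipy 1.17.1) and checked against edgeR 4.0.16 in R 4.3.3; figures used matplotlib 3.10.9. Ratios have exact (Clopper-Pearson) 95% intervals of the conditional binomial share, shares have exact binomial ones, and both cover counting error only, since PCR reads are not independent molecules. A count of 0 was set to a floor of 3 counts for a fold, written with the words at least. A call needed the whole interval beyond 2-fold against all 6 libraries. The rule was tested on simulated data with counting error alone. These held neither doubled counts nor variation between replicate libraries, so the test does not cover them.

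Loci are named by rule: the 2 per direction with the farthest bound for whole loci, for each length class and for each share, 1 per direction and pair, and the 10 most abundant. The members, length classes and rules were chosen with earlier results of these data known. Alternatives were other scalings, filters, folds, 1 identifier per gene, thinning, leaving out each temperature library, and counts divided by 2, the last added after seeing the counts.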

Additional observations from a re-analysis of the deposited data

How the results depend on the processing

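With 1 library per condition, 3' UTR counts alone and counts that look doubled, the intervals understate the error, and the kit and the treatment time cannot be told apart from salt. The cause of each shift below was not tested, except that a stricter fold, a filter, 1 identifier per gene or fewer counts leaves fewer calls, and that leaving out a library can only add calls, by construction. No paired analysis was possible because each condition had 1 library. At 25 to 41 nt, calls beyond the temperature libraries were more often above than below in the alternatives run. Calls below were 0 except without air heat for 3 h, when 2 shares within a locus lay below, and without cold for 24 h, when 1 level lay below. With 200 or more reads of the class, the lowest of the 6 median log2 ratios was -0.09.

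For whole loci beyond all 6, the main counts of 43 higher and 11 lower became 142 and 3 with 3' UTR totals, 67 higher with totals outside the 100 most abundant loci, 15 higher with a minimum of 200 reads, 3 and 2 beyond 4-fold, 763 and 349 beyond no change, 14 higher with 20 to 24 nt reads, 23 higher after thinning, 25 and 6 with 1 identifier per gene, and 15 and 7 with counts divided by 2. Leaving out 1 temperature library gave 48 to 70 higher, most without water heat for 3 h, and 11 to 37 lower, most without water heat for 1 h. With the unstressed library added they were 33 and 9. Bradi1g62400.1 lost its call with totals, beyond 4-fold, with the unstressed library and with counts divided by 2, and Bradi5g18880.1 with the unstressed library; each kept its direction, and no ratio was given for Bradi5g18880.1, Bradi3g40000.1 and Bradi1g62400.1 with 20 to 24 nt reads alone, nor for Bradi1g29850.2 and Bradi5g18880.1 with 200 or more reads, a minimum they do not reach.

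For single pairs, totals gave 3002 calls against air heat for 1 h, and 2720 and 2056 against the water-heat libraries. A minimum of 200 reads gave 1407 and 1152 against the cold libraries, 812 and 819 against air heat, and 636 and 743 against water heat. Beyond 4-fold there were 421 and 337, 352 and 334, and 285 and 330 in the same order, and with counts divided by 2 there were 1214 and 965, 727 and 776, and 558 and 691. Read lengths above all 6 numbered 6 with all loci (6 to 7 without 1 library), 10 outside the 10 most abundant loci, with 1 below, and 11 outside the 100. The count below was 0 whichever library was left out with all loci counted; outside the 100 it was 1 without air heat for 3 h and 2 without water heat for 3 h, when 13 lay above.

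For reads of a class, counts beyond all 6 in either direction at 15 to 19 nt were 7 with 200 or more reads, 9 with 1 identifier per gene and 6 with counts divided by 2, and 18 to 31 without 1 library. At 20 to 23 nt they were 32 with totals, 9 with 200 or more reads, 10 with 1 identifier per gene and 8 with counts divided by 2, and 19 to 30. At 24 nt they were 13 with counts divided by 2, and 31 to 57. At 25 to 41 nt they were 144 with totals, 13 with 200 or more reads and 13 with counts divided by 2, and 31 to 63. For shares within a locus the settings were 200 or more reads in each library, a gap of 20 points, 1 identifier per gene and counts divided by 2. They gave 1, 4, 4 and 1 at 15 to 19 nt, 3, 13, 17 and 5 at 20 to 23 nt, and 7, 3, 19 and 6 at 25 to 41 nt; at 24 nt 200 reads gave 4, the gap 5 and the division 10. Without 1 library these were 8 to 20, 29 to 45, 39 to 66 and, at 24 nt, 32 to 51. By leading class, totals gave 69 at 15 to 19 nt, 16 at 24 nt and 48 at 25 to 41 nt. Counts divided by 2 gave 8 at 15 to 19 nt, 5 at 20 to 23 nt, 6 at 24 nt and 3 at 25 to 41 nt. Without 1 library they were 18 to 32, 9 to 12, 12 to 29 and 18 to 32 in the same order.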
